A study of Mus musculus with 12 samples.

Results

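The 33 genes described here mark microglia, the resident macrophages of the brain, and macrophages elsewhere. They were chosen by name out of 29608 genes on the array. Each was read by every probe that carries its name in the array design, 48 probes of 60 bases on 57 spots, and 0 of those spots were saturated. RNA from the hippocampus of 12 female mice, about 12 weeks old and in diestrus, was hybridized to 6 Agilent arrays that read 1 mouse in the Cy3 channel and another of the same phenotype in the Cy5 channel. Odd-numbered replicates were labelled with Cy3 and even-numbered ones with Cy5, so each phenotype has 4 mice on 2 arrays. MRL/lpr mice carry a loss-of-function mutation of Fas and develop a disease like lupus. Fn14ko mice are MRL/lpr mice, with the same Fas mutation, in which Tnfrsf12a, the gene of the TWEAK receptor Fn14, was knocked out and backcrossed for 8 generations. MRL/+ mice (MRL/MpJ) have the MRL background with an intact Fas and came from another supplier than the other mice, which were bred as littermates. Supplier and Fas genotype therefore cannot be told apart, and neither can slide and phenotype.

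Microglia survey the tissue with mobile processes and depend on signals from neurons and astrocytes. In the resting, or homeostatic, state they carry the purinergic receptor P2RY12, the membrane protein TMEM119 and the fractalkine receptor CX3CR1. On injury, infection or degeneration they lower these and raise lysosomal and lectin genes such as Cd68, Lgals3 and Cst7 and the lipopolysaccharide coreceptor Cd14. Both shifts are usually read together as activation, and macrophages that enter from the blood carry many of the same genes except for the microglial receptors.

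The arrays were unequal. The median foreground over local background was 12.6 and 4.53 in MRL/lpr replicates 1 and 2 but 1.93 and 1.73 in replicates 3 and 4, which share 1 array, called the weak array from here on. In Fn14ko it was 6.06, 5.79, 5.25 and 4.42, and in MRL/+ it was 5.89, 4.71, 5.42 and 5.03. Of the 33 members, 32, 30, 8 and 5 were well above background in the 4 MRL/lpr samples, 31, 28, 30 and 28 in Fn14ko, and 31, 14, 31 and 17 in MRL/+. The low member numbers in MRL/+ lie in the Cy5 samples, where negative-control spots read 208 and 211 intensity units against 33.2 to 90.6 in the other 10 samples. Results are therefore given with all 12 samples and without the weak array. In the second case MRL/lpr is represented by 2 mice of 1 array, so that array and phenotype cannot be told apart.

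A spot counted as measured when its foreground was at least 2 times its background and no pixel flag was set in the samples compared. With all 12 samples 13 members and 8864 genes had such a spot, and without the weak array 29 members and 17936 genes. Members without one were read from a fit on all spots of 29608 genes. Levels are background-subtracted intensities in multiples of the channel's median, so a level is compared between samples for 1 gene and never between genes, and levels with and without the weak array are on different scales because the medians are over different spots. The scale matters most for the fit on all spots of 12 samples. Against the same spots in multiples of the median of measured spots, its differences are shifted by -0.54 for MRL/lpr against MRL/+, -1.46 for MRL/lpr against Fn14ko and 0.92 for Fn14ko against MRL/+, wherever no level is at the lowest value allowed. The median over all genes was -0.25, -0.08 and -0.02 on the first scale and 0.21, 1.34 and -0.97 on the second, so neither scale is neutral, and values on the measured-spot scale, chosen after the data had been seen, are given beside those from all spots. Differences are in log2 units with their standard error (SE), the adjusted p is from limma over all genes of the fit, and a gene is called at an adjusted p under 0.05.

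The targeted genes were read first. The Tnfrsf12a probe was well above background in 4 of 4 Fn14ko samples, with levels of 0.701, 0.634, 0.771 and 0.603 against 1.66 and 1.16 in MRL/lpr outside the weak array and 1.09, 1.71, 1.98 and 1.56 in MRL/+. All 4 Fn14ko samples lay below all 6 others. The difference was -1.20 against MRL/+ (SE 0.20, adjusted p = 0.00469), and MRL/lpr against Fn14ko gave 1.04 (SE 0.25, adjusted p = 0.0264), so the signal was lower but not at background. From all spots of 12 samples Fn14ko against MRL/+ gave -0.53 (adjusted p = 0.625) and MRL/lpr against Fn14ko -0.63 (adjusted p = 0.425), the opposite sign to that in 10 samples. On the measured-spot scale they gave -1.45 (adjusted p = 0.0972) and 0.83 (adjusted p = 0.124). Whether the probe lies in the deleted part of the gene is not in the files. The Fas level was 0.145 and 0.106 in MRL/lpr, 0.185, 0.165, 0.233 and 0.225 in Fn14ko and 0.378, 0.616, 0.192 and 0.659 in MRL/+. Of the 12 samples, 1 of MRL/lpr, 4 of Fn14ko and 2 of MRL/+ read it well above background, and the 2 highest values are those of the Cy5 samples with raised negative controls, so no fold is given. Both genes were looked up after the data had been seen.

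The labelled tissue was read next. The structured labels of all 12 samples say hippocampus, while their free-text descriptions mention cortex. The summed level of the 7 hippocampus markers measured outside the weak array was 18.6 and 16.9 in MRL/lpr, 3.97, 4.55, 5.03 and 4.43 in Fn14ko and 4.12, 4.70, 4.45 and 5.06 in MRL/+, with Neurod6 the most abundant. The MRL/lpr samples stand far above the other 8, which overlap. From all spots of 12 samples the sum over 10 markers was 86.4, 71.3, 74.1 and 47.0 in MRL/lpr, from 20.8 to 32.1 in Fn14ko and from 10.7 to 28.7 in MRL/+, but single markers disagreed in the weak array. Prox1 ranged from 2.30 to 7.34 in MRL/lpr, from 0.242 to 0.498 in Fn14ko and from 0.481 to 0.681 in MRL/+. Wnt8b was 9.07 and 6.70 in the weak array but 0.449 and 0.562 in the other MRL/lpr samples, within the MRL/+ range of 0.0578 to 0.663. Neurod6 was 2.75 and 1.59 in the weak array, below every Fn14ko sample (5.81 to 11.8), and Spink8 was 1.55 and 0.617 there against 0.700 to 1.504 in Fn14ko. The summed choroid plexus markers (8 genes, the most abundant Ttr in MRL/lpr and Enpp2 in the others) read 212 and 71.7 in MRL/lpr, 47.6, 32.4, 36.3 and 28.01 in Fn14ko and 33.2, 25.6, 34.5 and 28.8 in MRL/+. The summed erythroid markers (6 genes, Hba-a2 the most abundant) read 728 and 597, then 216, 204, 386 and 112, then 195, 144, 201 and 189. The weak array differed. From all spots of 12 samples the erythroid sum was 3112 and 2322 in MRL/lpr replicates 1 and 2 but 289 and 55.1 in replicates 3 and 4, against 543 to 2545 in Fn14ko and 287 to 1303 in MRL/+. Choroid plexus markers disagreed in the weak array, where Enpp2 was 7.02 and 7.51, below every other sample, while Otx2 was 34.3 and 35.0, above every other sample, and Kcnj13 was 11.7 and 9.46, above every Fn14ko and MRL/+ sample. Tissue content and the MRL/lpr phenotype cannot be told apart in every result that follows, and neither can a smaller number of microglia and less RNA per cell.

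**Figure D1:**
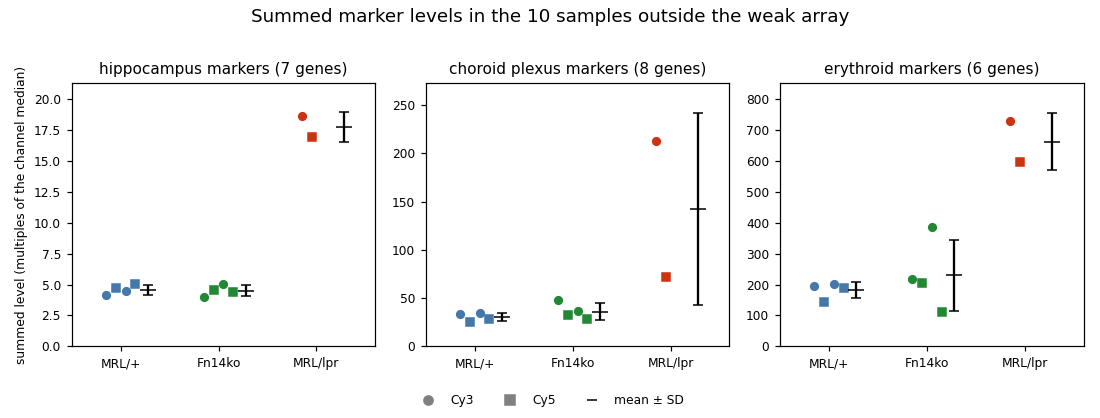
Summed levels of 7 hippocampus, 8 choroid plexus and 6 erythroid markers in the 10 samples outside the weak array, in multiples of the channel median, by phenotype (circles Cy3, squares Cy5, bars mean and SD). Both MRL/lpr samples lie above every other sample in all 3 panels, at 18.6 and 16.9 for the hippocampus markers.

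P2ry12 encodes the receptor that steers microglial processes toward ATP and ADP released by damaged cells. Over 12 samples its level was 0.355, 0.390, 0.184 and 0.412 in MRL/lpr, 0.695, 0.667, 0.706 and 0.621 in Fn14ko and 0.601, 0.788, 0.575 and 0.646 in MRL/+. All 4 MRL/lpr samples lay below all 8 others, and the other phenotypes overlapped. Its spot passed 2 times background in all 12 samples but was not well above background in MRL/lpr replicates 3 and 4. The level was lower in MRL/lpr than in MRL/+ by a log2 difference of -1.02 (SE 0.26, adjusted p = 0.0366) and than in Fn14ko by -1.07 (SE 0.26, adjusted p = 0.0450). Fn14ko against MRL/+ gave 0.05 (SE 0.26, adjusted p = 0.955).

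Without the weak array the P2ry12 level was 1.34 and 1.47 in MRL/lpr, 2.76, 2.65, 2.88 and 2.49 in Fn14ko and 2.31, 2.15, 2.27 and 2.00 in MRL/+. Both remaining MRL/lpr samples again lay below all others, and every Fn14ko sample lay above every MRL/+ sample. The difference was -0.64 against MRL/+ (SE 0.15, adjusted p = 0.0177), -0.94 against Fn14ko (SE 0.15, adjusted p = 0.00396) and 0.30 for Fn14ko against MRL/+ (SE 0.12, adjusted p = 0.0949). P2ry12 was lower in MRL/lpr under 18 of 18 alternatives and 12 of 12 omissions of a single sample in both comparisons. Of the 18, 5 return the difference with all samples and 1 that without the weak array by construction, since they change its error or other members alone, and thus say nothing about its direction. Its call was less stable. Without the weak array and with the negative-control background it was kept against MRL/+ and lost against Fn14ko. With all samples and the array as a random block the adjusted p was 0.321 and 0.285. Of the 12 omissions, 4 kept the call against MRL/+ (those of MRL/lpr replicates 1, 2 and 4 and of Fn14ko replicate 3) and 2 kept it against Fn14ko (MRL/lpr replicates 1 and 2), with an adjusted p of at most 0.122 and 0.129 in the others. The gene was read by 1 probe, and its first 30 bases are shown because the most stable difference among the homeostatic genes rests on it (mm9 chr3:59020628-59020657, minus strand).
P2ry12 probe: tgcacattaagatggtagaggtttaaaagg

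Cx3cr1 encodes the receptor for fractalkine, which neurons present to microglia. Its level over 12 samples was 0.629, 0.902, 0.385 and 0.533 in MRL/lpr, 0.80, 0.731, 1.01 and 0.895 in Fn14ko and 0.788, 1.57, 1.00 and 1.59 in MRL/+. The spot was well above background in 2 MRL/lpr samples, and MRL/lpr replicate 2 overlapped both other phenotypes. The difference was -1.02 against MRL/+ (SE 0.28, adjusted p = 0.0454), -0.55 against Fn14ko (SE 0.28, adjusted p = 0.167) and -0.47 for Fn14ko against MRL/+ (SE 0.28, adjusted p = 0.499). Outside the weak array the levels were 2.21 and 3.01 in MRL/lpr, 3.36, 3.05, 4.49 and 3.79 in Fn14ko and 3.32, 3.78, 3.49 and 3.96 in MRL/+. Both MRL/lpr samples lay below all others, the higher one close to the lowest Fn14ko sample, and the gene was no longer called: -0.49 (SE 0.20, adjusted p = 0.114), -0.49 (SE 0.20, adjusted p = 0.161) and 0.00 (SE 0.16, adjusted p = 1.00). The values over 12 samples rest on 1 probe, and those outside the weak array average it with others. Outside that array the probes gave -0.79, -0.22 and -0.49 against MRL/+, the last from the probe used over 12 samples. That probe gave -0.27 against Fn14ko and -0.22 for Fn14ko against MRL/+. The call with all samples stood in 2 of 12 omissions of a sample, those of MRL/lpr replicates 1 and 2. With the array as a random block the adjusted p was 0.312.

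Tmem119 encodes a membrane protein that other macrophages hardly carry. With all samples its level was 0.531, 0.752, 0.541 and 0.735 in MRL/lpr, 0.886, 0.693, 0.875 and 0.527 in Fn14ko and 0.774, 1.28, 1.02 and 1.52 in MRL/+. MRL/lpr lay below MRL/+ in all samples and overlapped Fn14ko. No comparison called it: -0.82 (SE 0.27, adjusted p = 0.0703) against MRL/+, -0.21 (SE 0.27, adjusted p = 0.554) against Fn14ko and -0.61 (SE 0.27, adjusted p = 0.305) for Fn14ko against MRL/+. With the weak array left out the level was 2.00 and 2.83 in MRL/lpr, 3.52, 2.75, 3.57 and 2.11 in Fn14ko and 2.98, 3.48, 4.04 and 4.72 in MRL/+, with the same order of phenotypes. The differences were then -0.65 (SE 0.27, adjusted p = 0.118), -0.30 (SE 0.27, adjusted p = 0.588) and -0.36 (SE 0.22, adjusted p = 0.244). The median over the 3 homeostatic genes was -1.02 against MRL/+, -0.55 against Fn14ko and -0.47 for Fn14ko against MRL/+ with all samples, beside medians over all genes of -0.01, 0.03 and -0.16. Lists of other cells were as low in the MRL/lpr comparisons of these 12 samples, with medians of -1.07 and -0.90 over 8 neuron markers and -0.93 and -1.14 over 3 endothelial markers. With the weak array left out the homeostatic median was -0.64, -0.49 and 0.00 beside -0.10, -0.04 and -0.07 over all genes. The last 2 homeostatic medians are those of Cx3cr1, which averages 3 probes there and rests on 1 of them over 12 samples. In the MRL/lpr comparisons without the weak array the neuron medians were -0.12 and -0.26 and the endothelial ones 0.31 and -0.33.

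Of the genes usually raised in activated microglia, Cd68 encodes a lysosomal membrane protein of phagocytes. Its level over 12 samples was 0.464, 0.523, 0.252 and 0.504 in MRL/lpr, 0.298, 0.352, 0.359 and 0.562 in Fn14ko and 0.387, 0.520, 0.447 and 0.581 in MRL/+. The phenotypes overlapped, and the differences were -0.19 against MRL/+ (SE 0.26, adjusted p = 0.600), 0.13 against Fn14ko (SE 0.26, adjusted p = 0.699) and -0.33 for Fn14ko against MRL/+ (SE 0.26, adjusted p = 0.654). Outside the weak array the levels were 0.964 and 1.10 in MRL/lpr, 0.660, 0.791, 0.826 and 1.24 in Fn14ko and 0.852, 1.05, 1.01 and 1.22 in MRL/+. They overlapped there too, with differences of 0.01 (SE 0.21, adjusted p = 0.985), 0.27 (SE 0.21, adjusted p = 0.517) and -0.26 (SE 0.17, adjusted p = 0.282). These average 2 probes that disagreed, with 0.21 and -0.96 against MRL/+, 0.28 and 0.16 against Fn14ko and -0.07 and -1.12 for Fn14ko against MRL/+, and the values over 12 samples rest on the first alone.

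Lgals3 encodes galectin-3, a lectin of phagocytes, and had no spot measured in all 12 samples. In the 10 samples outside the weak array its level was 0.945 and 0.886 in MRL/lpr, 0.314, 0.287, 0.157 and 0.286 in Fn14ko and 0.0938, 0.457, 0.153 and 0.569 in MRL/+. Both MRL/lpr samples lay above all 8 others, and the higher MRL/+ values belong to the Cy5 samples, where the spot was not well above background. The difference was 1.89 against MRL/+ (SE 0.50, adjusted p = 0.0297), 1.86 against Fn14ko (SE 0.50, adjusted p = 0.0428) and 0.03 for Fn14ko against MRL/+ (SE 0.41, adjusted p = 0.965). With the negative-control background in these samples the call against MRL/+ was kept and that against Fn14ko was lost. From all spots of all 12 samples the differences were 0.77 (SE 0.60, adjusted p = 0.545), 0.07 (SE 0.60, adjusted p = 0.929) and 0.69 (SE 0.60, adjusted p = 0.592), and no call was made. On the measured-spot scale they were 1.31 (SE 0.56, adjusted p = 0.221), 1.53 (SE 0.56, adjusted p = 0.113) and -0.22 (SE 0.56, adjusted p = 0.792), again without a call. The level in the weak array was not well above background.

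Cd14 split the samples the same way. Outside the weak array its level was 0.808 and 1.12 in MRL/lpr, 0.501, 0.600, 0.640 and 0.624 in Fn14ko and 0.456, 0.460, 0.540 and 0.555 in MRL/+. Both MRL/lpr samples lay above the others, and the spot was well above background in 2 of the 4 MRL/+ samples. The difference was 0.93 against MRL/+ (SE 0.20, adjusted p = 0.0116), 0.69 against Fn14ko (SE 0.20, adjusted p = 0.0532) and 0.23 for Fn14ko against MRL/+ (SE 0.16, adjusted p = 0.300). With the negative-control background the first was 3.77 and no longer called (adjusted p = 0.0832). With the weak array included and all spots used the sign against both turned, to -0.36 (SE 0.69, adjusted p = 0.872) and -1.26 (SE 0.69, adjusted p = 0.187), with 0.90 (SE 0.69, adjusted p = 0.585) for Fn14ko against MRL/+. On the measured-spot scale the same 12 samples gave 0.18 (SE 0.41, adjusted p = 1.00), 0.20 (SE 0.41, adjusted p = 0.687) and -0.02 (SE 0.41, adjusted p = 0.978), so the sign over 12 samples depends on the scale. Cst7, which encodes the protease inhibitor cystatin F, was well above background in 1 MRL/lpr sample, 0 Fn14ko samples and 0 MRL/+ samples, so no fold is given. Its adjusted p with all samples was 0.460 against MRL/+, 0.0933 against Fn14ko and 0.633 for Fn14ko against MRL/+, and on the measured-spot scale 0.892, 0.156 and 0.425. The median difference over the 4 activated genes, Cst7 included as fitted, was 0.29, 0.10 and 0.18 with all samples, where Cd68 came from measured spots and the others from all spots. With all 4 on 1 scale it was 0.49, 0.86 and -0.27 on that of measured spots and 0.20, -0.52 and 0.55 on that of all spots, so its sign against Fn14ko depends on the scale. Without the weak array it was 0.63, 0.81 and -0.12. Over the 3 genes other than Cst7 the same 4 medians were -0.19, 0.07 and 0.69, then 0.18, 0.20 and -0.22, then -0.36, -1.11 and 0.69, and 0.93, 0.69 and 0.03 without the weak array, so the sign against MRL/+ with all samples depends on Cst7 and on the scale. The Lgals3 and Cd14 calls thus rest on the 2 mice of 1 array in which hippocampus, choroid plexus and erythroid markers were also high, and the part of those tissues in the calls was not tested.

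**Figure D2:**
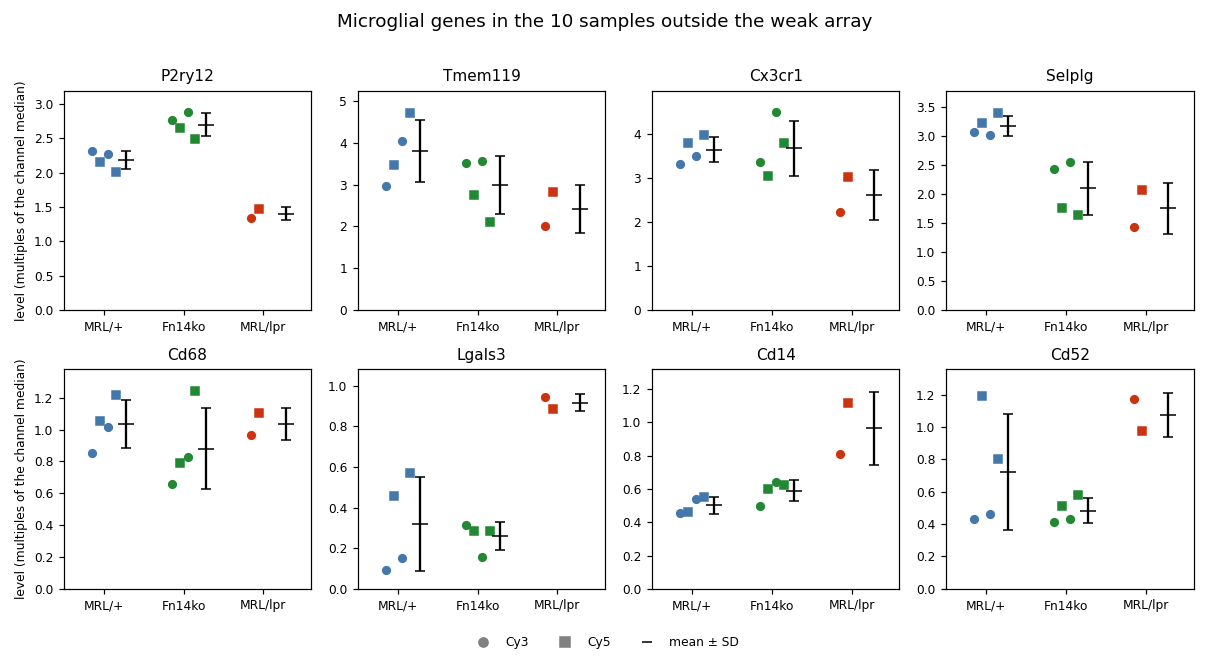
Levels of 8 members in the 10 samples outside the weak array, in multiples of the channel median, by phenotype (circles Cy3, squares Cy5, bars mean and SD). The 2 MRL/lpr samples lie below every other sample for P2ry12, at 1.34 and 1.47, and above every other sample for Lgals3 and Cd14.

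Set against the same counts over all genes, the members did not stand apart in every comparison. In MRL/lpr against MRL/+, 3 of the 13 members measured in all 12 samples were called (Cx3cr1 and P2ry12 lower, Siglech higher), 23.1% against 9.17% of 8864 genes, and 6 had an unadjusted p under 0.05. Of the other 20 members 0 were called in the fit on all spots, which called 0.993% of genes, and 0 on the measured-spot scale (2 at an unadjusted p under 0.05), which called 2.46%. All 4 samples of each phenotype stood apart for 5 of the 13 (1 higher, 4 lower), against 16.1% of genes, and for 0 of the other 20, against 5.64%. With the weak array left out, 5 of 29 members were called (3 higher, 2 lower), 17.2% beside 15.7% of 17936 genes, which is near the background, and 13 had an unadjusted p under 0.05. The groups stood apart for 13 of 29 (5 higher, 8 lower), 44.8% beside 34.0%. The median over the measured members was -0.22 with all samples and -0.07 without the weak array. Samples share arrays in pairs, and with all samples and the array as a random block limma called 0 members (2 at an unadjusted p under 0.05) and 7 of 8864 genes.

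In MRL/lpr against Fn14ko, 1 of the 13 members was called (P2ry12), 7.69% against 3.98% of genes, and 3 had an unadjusted p under 0.05. Of the other 20 members 3 were called in the fit on all spots, which called 12.8% of genes, and 0 on the measured-spot scale (8 at an unadjusted p under 0.05), which called 6.83%. The groups stood apart for 3 of the 13 (2 higher, 1 lower), against 21.5%, and for 15 of all 33 members in the fit on all spots, against 31.5%. In the 10 samples outside the weak array 4 of 29 were called (3 higher, 1 lower), 13.8% beside 9.12%, and 12 had an unadjusted p under 0.05. The groups then stood apart for 18 of 29 (9 higher, 9 lower), 62.1% beside 37.0%. The median over the measured members was -0.16 and -0.05, so the members were split between directions. With all samples and the array as a random block 0 members (1 at an unadjusted p under 0.05) and 4 genes were called.

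In Fn14ko against MRL/+, limma called 0 of the 13 members and 0 of the other 20, against 0.519% of genes measured in all 12 samples and 0% in the fit on all spots, and again 0 of the other 20 on the measured-spot scale (2 at an unadjusted p under 0.05), against 0.145%, and 5 of the 13 had an unadjusted p under 0.05. The groups stood apart for 0 of the 13, against 19.9%, and for 2 of all 33 members in the fit on all spots, against 7.89%. Outside the weak array, in a fit that holds all 8 of these samples, 3 of 29 were called (1 higher, 2 lower), 10.3% beside 21.1%, and 7 had an unadjusted p under 0.05. The groups stood apart for 3 of 29, 10.3% beside 18.5%. The median over the measured members was -0.33 with all samples and -0.09 without the weak array. The comparisons share samples, and their values are given side by side for that reason.

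Of the other purinergic receptors of the surveying state, P2ry13 ranged from 0.680 to 0.868 in MRL/lpr, from 0.904 to 1.28 in Fn14ko and from 0.765 to 1.17 in MRL/+ outside the weak array. P2ry6, the UDP receptor of phagocytosis, ranged from 0.737 to 0.815, from 0.487 to 0.560 and from 0.432 to 0.712. Gpr34, a receptor for lysophosphatidylserine, ranged from 0.592 to 0.674, from 0.678 to 0.787 and from 0.605 to 1.06. All 3 separated MRL/lpr from Fn14ko in these 10 samples, as 37.0% of 17936 genes did, P2ry6 upward and the others downward. None was called there in the reported fit. With all 12 samples and all spots Gpr34 was called lower in MRL/lpr than in Fn14ko, by -1.64 (SE 0.50, adjusted p = 0.0478), where both weak-array samples were not well above background. On the measured-spot scale the difference was -0.18 (SE 0.35, adjusted p = 0.662) and not called. The call from all spots fell away on omission of any single sample other than MRL/lpr replicate 1 or 2, with an adjusted p of at most 0.141, and with the array as a random block (adjusted p = 0.264).

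Among other genes enriched in microglia, Siglech encodes a sialic acid receptor. Its level over 12 samples was 3.89, 4.59, 3.82 and 4.62 in MRL/lpr, 1.75, 2.04, 3.25 and 2.88 in Fn14ko and 0.849, 1.55, 1.34 and 2.49 in MRL/+. All MRL/lpr samples lay above all others. The averaged difference was 1.54 against MRL/+ (SE 0.30, adjusted p = 0.0142), and 1.71 without the weak array (SE 0.33, adjusted p = 0.00727), where Fn14ko against MRL/+ gave 0.98 (SE 0.27, adjusted p = 0.0291). With all samples the call stood in 11 of 12 omissions of a sample and was lost without MRL/+ replicate 2 (adjusted p = 0.0567) and with the array as a random block (adjusted p = 0.261). The 3 Siglech probes did not move together. In the 10 samples outside the weak array they gave 2.05, -1.20 and 0.09 against MRL/+, and the first of these shares 16 bases in a row with the promoters of 37 other genes and with 12 probes of other genes. Without that probe the difference turned to -0.91 (SE 0.18, adjusted p = 0.00847) outside the weak array and was 0.93 (adjusted p = 0.432) with all samples, so the direction of Siglech itself is not settled by the array. The first 30 bases of the 3 probes are shown because the direction turns on which is used (mm9, plus strand, chr7:63034088-63034117, chr7:63028608-63028637 and chr7:63033826-63033855).
Siglech probe at 2.05: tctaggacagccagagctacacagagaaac
Siglech probe at -1.20: attggattaatccagtgtgtgaacagtctt
Siglech probe at 0.09: acaacagttaaattcccttgcagagacatc

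Itgam, the integrin chain of complement receptor 3, had the same property. Its level outside the weak array was 24.4 and 40.0 in MRL/lpr, 12.6, 17.7, 20.7 and 18.8 in Fn14ko and 17.9, 27.1, 20.4 and 28.9 in MRL/+. MRL/lpr stood above Fn14ko and overlapped MRL/+, and the difference against Fn14ko was 0.86 (SE 0.21, adjusted p = 0.0308). It came from a probe made of a dinucleotide repeat, which shares 16 bases in a row with the promoters of 166 other genes and with 113 probes of other genes and gave 0.87. Of the other 2 probes 1 was well above background in 0 MRL/lpr samples and 1 sample of each other phenotype, so no fold is given. Without the repeat, with 1 measured probe left, the difference was -0.25 (adjusted p = 0.625). Over 12 samples the gene gave 0.66 (adjusted p = 0.126) against Fn14ko and the same remaining probe 1.03 (adjusted p = 0.232), so the sign of that probe depends on the weak array. Outside that array it was lower than in MRL/+ in both strains with the Fas mutation, by -1.64 in MRL/lpr (SE 0.24, adjusted p = 0.00168) and -1.40 in Fn14ko (SE 0.20, adjusted p = 0.00219), and with all 12 samples by -0.62 (adjusted p = 0.491) and -1.65 (adjusted p = 0.235). The first 30 bases show the contrast (mm9, plus strand, chr7:135261755-135261784 and chr7:135260275-135260304).
Itgam probe at 0.87: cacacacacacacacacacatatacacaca
Itgam probe at -0.25: aagttcacaatcctgtaccactcattgtgg

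The 2 probes were singled out after their values had been seen, and every other member probe shared such a run with the promoters of at most 3 other genes. Among the remaining genes enriched in microglia, Fcrls ranged from 0.883 to 1.02 in MRL/lpr, from 0.748 to 1.33 in Fn14ko and from 0.906 to 1.25 in MRL/+. Olfml3 ranged from 0.660 to 0.828, from 1.00 to 1.48 and from 0.844 to 1.45, below all other samples in MRL/lpr, but the 3 of its 4 probes measured there differed in sign.

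Selplg, the selectin ligand PSGL-1 on leukocytes, was read by 2 probes that were both lower in MRL/lpr. Outside the weak array its level was 1.44 and 2.07 in MRL/lpr, 2.43, 1.76, 2.55 and 1.65 in Fn14ko and 3.07, 3.23, 3.02 and 3.40 in MRL/+. All MRL/+ samples lay above all samples of the strains with the Fas mutation, which overlapped each other. The difference was -0.88 for MRL/lpr against MRL/+ (SE 0.23, adjusted p = 0.0263), -0.26 against Fn14ko (adjusted p = 0.575) and -0.63 for Fn14ko against MRL/+ (SE 0.18, adjusted p = 0.0376). With all 12 samples the level was 0.499, 0.695, 0.422 and 0.447, then 0.772, 0.515, 0.776 and 0.450, then 0.731, 1.03, 0.860 and 1.15. MRL/lpr remained below MRL/+ in every sample, with a difference of -0.88, and no call was made. The values over 12 samples rest on 1 of the 2 probes. Outside the weak array that probe gave -0.50 against MRL/+ and the other -1.38. Itgb2, the partner chain of Itgam, ranged from 0.476 to 0.481, from 0.355 to 0.486 and from 0.384 to 0.715, and overlapped throughout. Itgax was well above background in 1 MRL/lpr sample and in 0 of the others, so no fold is given.

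Of the genes of lineage and survival, Csf1r and Irf8 separated MRL/lpr from MRL/+ outside the weak array, as 34.0% of 17936 genes did. They did so in opposite directions and were not called in the reported fit. Csf1r encodes the receptor on which microglia depend for survival, and its level outside the weak array ranged from 4.83 to 5.52 in MRL/lpr, from 5.64 to 6.88 in Fn14ko and from 6.32 to 7.79 in MRL/+. MRL/lpr lay below both, and with all 12 samples the adjusted p against MRL/+ was 0.0510. Irf8, a transcription factor of the lineage, ranged from 1.40 to 1.98, from 0.955 to 1.42 and from 0.784 to 1.34. Spi1, which encodes the transcription factor PU.1, was well above background in 0 MRL/lpr samples and in 2 samples of each other phenotype, so no fold is given. Its adjusted p from all spots outside the weak array was 0.00818 for MRL/lpr against MRL/+ and 0.0301 for Fn14ko against MRL/+, and with all samples 0.967 and 0.583 from all spots and 1.00 and 0.425 on the measured-spot scale.

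The receptors that signal through ITAM adaptors mostly overlapped between phenotypes. Tyrobp, the adaptor of TREM2, ranged from 1.86 to 2.93 in MRL/lpr, from 2.33 to 2.77 in Fn14ko and from 1.79 to 2.74 in MRL/+. Fcer1g, the common Fc receptor chain, ranged from 2.72 to 3.09, from 2.22 to 2.62 and from 2.44 to 3.79. Trem2 itself was 0.539 and 0.588 in MRL/lpr replicates 1 and 2 but 3.30 and 5.02 in the weak array, against 0.531 to 0.908 in Fn14ko and 0.423 to 1.11 in MRL/+ over 12 samples. Its high values are thus those of 1 array. Fcgr3, a low-affinity IgG receptor, was 0.548 and 0.648 in MRL/lpr, 0.588, 0.572, 0.536 and 0.529 in Fn14ko and 0.710, 1.000, 0.737 and 0.879 in MRL/+ outside the weak array. Every MRL/+ sample lay above every other sample. The difference for Fn14ko against MRL/+ was -0.57 (SE 0.15, adjusted p = 0.0234), and the spot was not well above background in 2 of the 4 MRL/+ samples. From all spots of 12 samples it was 0.10 (SE 0.48, adjusted p = 0.899) and on the measured-spot scale -0.82 (SE 0.32, adjusted p = 0.425), so over 12 samples its sign depends on the scale and no call was made.

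Among genes of all leukocytes, Cd52, a small surface glycoprotein, was 1.17 and 0.978 in MRL/lpr, 0.411, 0.514, 0.430 and 0.581 in Fn14ko and 0.430, 1.19, 0.462 and 0.803 in MRL/+ outside the weak array. MRL/lpr lay above Fn14ko and overlapped MRL/+. The difference against Fn14ko was 1.16 (SE 0.30, adjusted p = 0.0355), and it was -0.21 (adjusted p = 0.747) from all spots of 12 samples and 1.24 (adjusted p = 0.0780) on the measured-spot scale. Ptprc, which encodes CD45, ranged from 0.297 to 0.396 in MRL/lpr, from 0.180 to 0.267 in Fn14ko and from 0.144 to 0.606 in MRL/+. Laptm5, a lysosomal protein of leukocytes, ranged from 0.327 to 0.372, from 0.304 to 0.420 and from 0.415 to 0.605. The tetraspanin Cd53 was well above background in 2 MRL/lpr, 1 Fn14ko and 2 MRL/+ samples and had no spot measured in all 10 samples outside the weak array.

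Ly86, the partner of the receptor RP105, ranged from 0.960 to 1.18 in MRL/lpr, from 1.47 to 1.86 in Fn14ko and from 1.04 to 1.5 in MRL/+ outside the weak array. MRL/lpr lay below all Fn14ko samples. From all spots of 12 samples the difference against Fn14ko was -1.72 (SE 0.49, adjusted p = 0.0419), and on the measured-spot scale -0.26 (SE 0.25, adjusted p = 0.366). Lyz2, the lysozyme of myeloid cells, ranged from 0.203 to 0.270, from 0.0466 to 0.148 and from 0.0426 to 0.496. It was well above background in 2 samples of each phenotype, so no fold is given. The fit on all spots of 12 samples called it higher than in Fn14ko (adjusted p = 0.04996), and on the measured-spot scale it was not called (adjusted p = 0.0614). Omission of single samples left the Ly86 call standing for MRL/lpr replicates 1 and 2 alone, and the Lyz2 call for MRL/lpr replicate 2 alone, with an adjusted p of at most 0.142 and 0.151 otherwise. With the array as a random block it was 0.270 and 0.306. Neither was called in the reported fit outside the weak array. Of the alternatives without that array, the array as a random block called Ly86 (adjusted p = 0.0205) and the negative-control background called Lyz2. The costimulatory Cd86 ranged from 0.154 to 0.185, from 0.197 to 0.226 and from 0.184 to 0.461. Mrc1, the mannose receptor of border macrophages, ranged from 0.281 to 0.869, from 0.325 to 0.559 and from 0.352 to 0.526, and Aif1, which encodes the microglial protein IBA1, from 1.29 to 1.39, from 1.43 to 2.01 and from 0.867 to 2.18. The last 2 overlapped between MRL/lpr and MRL/+.

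Other genes of the same cells were read outside the weak array. There 15.7% of 17936 genes were called in MRL/lpr against MRL/+, 9.12% in MRL/lpr against Fn14ko and 21.1% in Fn14ko against MRL/+. These shares hold for the counts of all 14 lists in those samples. For counts over 12 samples they were 9.17%, 3.98% and 0.519% of 8864 genes. With the array as a random block 7, 4 and 0 of the 8864 genes were called. Of 28 measured further microglia genes, 1 was called in MRL/lpr against MRL/+ (Abi3, -0.71) and 3 in Fn14ko against MRL/+ (Dock2, -1.21, Sall1, -1.05, and C1qc, -0.72), and the calls in MRL/lpr against Fn14ko included Mertk (-1.12). Each of these was lower, and the list's medians were -0.34 against MRL/+, -0.02 against Fn14ko and -0.16 for Fn14ko against MRL/+. Over 12 samples, with 7 of these genes measured, the medians were -0.84, -0.47 and -0.32, and limma called 0 in each comparison. Outside the weak array Dock2 and Sall1 were highest in the MRL/+ Cy5 samples, where negative controls were raised. Dock2 was 0.160 and 0.156 in MRL/+ Cy3, 0.425 and 0.385 in MRL/+ Cy5 and 0.0963 to 0.123 in Fn14ko. Sall1 was 0.408 and 0.455, then 0.982 and 0.857, and 0.244 to 0.372 in Fn14ko. C1qc ranged from 4.07 to 4.62 in MRL/+ and from 2.29 to 3.02 in Fn14ko. Of 17 measured further genes of activated microglia, 4 were higher and 1 lower in MRL/lpr than in MRL/+ (the largest Spp1, 1.67, Lpl, 1.53, and Igf1, -1.01), 1 higher and 1 lower than in Fn14ko (Lpl, 1.69, and Axl, -0.74), and 0 higher and 1 lower in Fn14ko than in MRL/+ (Igf1, -1.01). Its medians were 0.34, 0.48 and -0.09. Over 12 samples, with 11 of these genes measured, 3 were higher and 1 lower than in MRL/+ (Csf1, 1.34, Lpl, 1.16, Cyba, 1.04, and Axl, -0.996), Lpl was higher (1.57) and Axl lower (-1.03) than in Fn14ko, and 0 were called in Fn14ko against MRL/+ (1 at an unadjusted p under 0.05). The medians were 0.79, 0.55 and -0.02, and Igf1 against MRL/+ turned to 0.55 (adjusted p = 0.621). Of the 6 ligands that act on microglia, Tgfb2 (2.07) and Csf1 (0.68) were higher in MRL/lpr than in MRL/+, Tgfb2 (2.62) than in Fn14ko, and Cx3cl1 was higher (1.00) and Tgfb1 lower (-0.87) in Fn14ko than in MRL/+. The medians were 0.03, -0.07 and 0.05. The Cx3cl1 difference lay in Cy5, where the level was 61.4 and 64.4 in Fn14ko and 17.7 and 17.0 in MRL/+. In Cy3 the phenotypes overlapped, with 46.7 and 63.2 in Fn14ko and 54.1 and 45.4 in MRL/+. Csf1 is on both of the last lists.

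Few markers of other leukocytes were measured. Of 7 measured border macrophage markers Stab1 was higher in MRL/lpr than in MRL/+ (1.09), and limma called 0 in the other comparisons. Of 3 measured monocyte and neutrophil markers Csf3r was higher in the same comparison (1.35), and 0 were called in the others. In Cy3 the Csf3r level was 20.9 in MRL/lpr and 13.7 and 11.6 in MRL/+. In Cy5 it was 15.9 in MRL/lpr and 3.60 and 4.66 in MRL/+. Whether such cells were more numerous was not tested. Of 6 T cell markers 0 were called in MRL/lpr against MRL/+, Cd4 was higher than in Fn14ko (0.83), and Cd4 (-1.10), Cd3e (-1.10) and Cd5 (-0.93) were lower in Fn14ko than in MRL/+. Of 4 B and plasma cell markers 0 were called in the first comparison, while Cd79a was higher than in Fn14ko (1.43) and lower in Fn14ko than in MRL/+ (-0.91). Cd163, Ccr2, Mmp8, Cd3g, Ms4a1 and Blk were not well above background in any of the 12 samples.

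Markers of the tissue itself were read in the same samples. The astrocyte marker Gfap was higher in MRL/lpr than in MRL/+ (2.32) and Fn14ko (1.32) and in Fn14ko than in MRL/+ (1.00). Of the 8 astrocyte markers, 1 was called higher and 2 lower in MRL/lpr than in MRL/+ (S100b, -0.87, and Slc1a2, -0.75, but -0.02 over 12 samples), 1 higher and 1 lower than in Fn14ko (S100b, -0.98), and 3 higher in Fn14ko than in MRL/+ (Fgfr3, 1.06, and Aldh1l1, 0.69, beside Gfap). Of 8 oligodendrocyte markers Mog was called in the first comparison (0.88) and the last (0.51). Of 8 neuron markers Slc17a7 was lower in MRL/lpr (-1.39) and in Fn14ko (-1.07) than in MRL/+, and Camk2a was lower in MRL/lpr than in Fn14ko (-0.69). Of 7 endothelial markers 0 were called in the MRL/lpr comparisons, and 3 were higher and 1 lower in Fn14ko than in MRL/+ (the largest Esam, 1.39, Ly6c1, 0.95, and Slco1a4, 0.85). Some of these differences were larger in Cy5. Esam was 1.46 and 1.16 in MRL/+ Cy3, 0.599 and 0.539 in MRL/+ Cy5 and 1.77 to 3.36 in Fn14ko. Slco1a4 was 2.67 and 2.44, then 0.938 and 0.930, and 2.06 to 4.18 in Fn14ko. The astrocyte marker Fgfr3 was 5.38 and 4.30, then 1.57 and 1.71, and 4.89 to 7.42 in Fn14ko.

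Outside the weak array the hippocampus, choroid plexus and erythroid lists had the largest medians of the 14 lists in both MRL/lpr comparisons, 1.53 and 2.36, 2.63 and 2.59, and 2.01 and 1.84. Of the 7 hippocampus markers, 5 were higher and 1 lower in MRL/lpr than in MRL/+ (Spink8, 4.06, Lct, 2.78, and Neurod6, 1.98), 6 higher than in Fn14ko (Spink8, 4.14, Lct, 3.00, and Fibcd1, 2.51), and 2 lower in Fn14ko than in MRL/+ (Fibcd1, -1.19, and C1ql2, -0.97). These 2 were well above background in 2 MRL/+ samples and higher in the MRL/+ Cy5 samples, where negative controls were raised. C1ql2 was 0.194 and 0.230 in MRL/+ Cy3, 0.555 and 0.560 in MRL/+ Cy5 and 0.132 to 0.216 in Fn14ko. Fibcd1 was 0.118 and 0.105, then 0.308 and 0.234, and 0.0701 to 0.0801 in Fn14ko. Of the 8 choroid plexus markers, 5 were higher in MRL/lpr than in MRL/+ (Ttr, 4.34, Clic6, 3.47, and Folr1, 3.28), 4 than in Fn14ko (Ttr, 4.31, Folr1, 3.71, and Kl, 3.30), and 0 were called in Fn14ko against MRL/+. Of the 6 erythroid markers, 5 were higher than in MRL/+ (Hbb-bt, 2.79, Alas2, 2.24, and Hbb-b2, 2.14), 6 than in Fn14ko (Hbb-b1, 2.70, Hbb-bt, 2.06, and Hbb-b2, 1.97), and Hbb-b1 was lower in Fn14ko than in MRL/+ (-1.72). Over 12 samples limma called 0 of 4 measured erythroid markers in both MRL/lpr comparisons (0 at an unadjusted p under 0.05), with medians of 0.35 and 0.34 and Hbb-bt at -0.12 against Fn14ko, and the medians of all 6 were -0.19 and -0.96 from all spots. The medians of 4 measured choroid plexus markers were then 3.36 and 3.74, with Ttr called (3.33 and 3.55), and those of 5 measured hippocampus markers 2.47 and 2.89, with 2 and 4 called higher. The part of these tissues in the member results was not tested.

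PU.1, the factor that Spi1 encodes, binds purine-rich DNA around the core GGAA, and many microglial promoters carry such letters. RefSeq promoters (GRCm38.p6, 300 bases around the start) matched 22 members with 25 promoters. On either strand GAGGAA stood in 13 of the 25 (12 members), 52%, against 28.3% of 32851 promoters. GGAAGT stood in 12 (11 members), 48%, against 23.8%. The joined form GAGGAAGT, which contains both, stood in 1, that of Cd53, against 3.20%, and the same run with an A before and a G after it in 0, against 0.426%. P2ry12 carried GGAAGT and not GAGGAA. The matches describe letters only.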

How the data were processed

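The scanner files were deposited with intensity values per spot and channel that the authors extracted with Agilent Feature Extraction 12.1.0.3, not yet normalized. The series gives no dye ratio between phenotypes, so each channel was taken as 1 sample. The median local background was subtracted from the mean foreground, spots under 2 times background or with pixel flags were dropped, levels were expressed in multiples of the channel's median, and the spots of a gene were averaged, as the study's methods describe. Where no filter was used, 1% of the channel's median was the lowest value allowed. Groups were compared with limma 3.58.1 (R 4.3.3, statmod 1.5.0) on log2 levels, with phenotype and dye as terms, two-sided, and Benjamini-Hochberg adjustment over all genes of a fit. Other steps used Python 3.11.15, pandas 2.3.3 and matplotlib 3.10.9. The fit was tested on simulated data with independent samples and the same spread for every gene. That test held no shared arrays and no weak array, so it cannot show whether the reported calls hold.

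The members and lists were chosen with earlier results of these data known. Named with full statistics are the 7 genes of the homeostatic and activated lists and each member past the threshold with all 12 samples or without the weak array, except that Cst7, Spi1 and Lyz2, mostly not well above background, are given no fold. Of the 14 other lists (further microglia genes, further genes of activated microglia, microglia ligands, border macrophage, monocyte and neutrophil, T cell, B and plasma cell, astrocyte, oligodendrocyte, neuron, hippocampus, endothelial, choroid plexus and erythroid markers), up to 3 called genes are named, largest difference first. Tnfrsf12a, Fas, the probes of single members and the markers not well above background fall outside that rule and were named after the data had been seen. Probe repeats are runs of 16 bases shared with other genes' RefSeq promoters or probes.

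Alternatives tried were the sample set, the filter, the software's processed signal, normexp with an offset of 50, quantile normalization, the brightest probe of a gene, array as a random block, replicate number as a block, no dye term, estimated array weights, the methods' t-test without their fold-change cut-off, each sample left out in turn and, added later, another background, Cy3 samples only, omission of repeat probes and the measured-spot scale for all spots. The number of arrays limits the precision.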

Additional observations from a re-analysis of the deposited data

Results flagged for a closer look

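The level of Cd68 in MRL/lpr replicate 3, a sample of the weak array, lay far below the other 3 samples of its phenotype: 0.252 against 0.464, 0.523 and 0.504. The gap to the nearest sample was 0.838 of the whole range on the log2 scale. It was the 1 such case among 99 sets of 4 samples (33 genes in 3 phenotypes), and chance gives about 1 in 20 sets. The channel's foreground was 1.93 times background there, and the part of the weak signal in the low value was not tested.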

How the results depend on the processing

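With all 12 samples as reported, limma called 3 members in MRL/lpr against MRL/+, 4 in MRL/lpr against Fn14ko and 0 in Fn14ko against MRL/+, where 7 had an unadjusted p under 0.05. Of the 13 members with measured spots these are 3, 1 and 0, beside 9.17%, 3.98% and 0.519% of measured genes, and of the other 20, read from all spots, 0 (2 at an unadjusted p under 0.05), 3 and 0, beside 0.993%, 12.8% and 0% of all genes. P2ry12 kept its direction in 18 of 18 alternatives against both MRL/+ (-1.96 to -0.61) and Fn14ko (-2.53 to -0.66). Its adjusted p was under the threshold in 11 and 9 of them and ranged from 0.00490 to 0.544 and from 0.000839 to 0.468. Cx3cr1 and Tmem119 were lower in MRL/lpr than in MRL/+ in 18 of 18 alternatives each, past the threshold in 5 and 2. For these 3 genes, 6 of the 18 alternatives cannot move the difference from that with all samples (5) or without the weak array (1). Lgals3 was higher than in MRL/+ in 18 of 18, past the threshold in 6, and Cd14 in 8 of 18, past it in 3. For each of these too, 5 alternatives return the difference with all samples and 1 that without the weak array. Of 33 differences with full statistics, those that kept both their direction and their side of the threshold numbered from 14 (array weights, and neither the weak array nor the repeat probes) to 31 (without the repeat probes). Values below are single-gene differences that changed sign, medians that moved by more than the spread between replicates (0.289 for the homeostatic and 0.403 for the activated median) and counts that moved by over 1.5 times. The activated median also changed sign within that spread, to -0.12 in Fn14ko against MRL/+ without the weak array (as such, with array as a random block and without the repeat probes), -0.060 in the same comparison with array weights, -0.10 in MRL/lpr against Fn14ko with the negative-control background and, without MRL/lpr replicate 1, -0.060 in MRL/lpr against MRL/+ and -0.24 in MRL/lpr against Fn14ko (-0.11 there without MRL/lpr replicate 2). Beside a count of members called or not overlapping, the share of all measured genes, or of all genes where no filter was used, for which the same held is in brackets, although members without a measured spot were counted from all spots. Cst7 and Spi1 were well above background in at most 2 samples of a phenotype. Their values and sign changes are listed for completeness, and no fold or direction is read from them. The activated medians include Cst7 as fitted. Where nothing else is said, the cause was not tested.

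Without the weak array, which leaves fewer samples and more genes, limma called, of the 33 members, 6 in MRL/lpr against MRL/+ (15.7%) and 4 in Fn14ko against MRL/+ (21.1%), and phenotypes did not overlap for 14 in MRL/lpr against MRL/+ (34.0%), 19 in MRL/lpr against Fn14ko (37.0%) and 4 in Fn14ko against MRL/+ (18.5%). Here the homeostatic median was -0.64 in MRL/lpr against MRL/+ and 7.2e-05 in Fn14ko against MRL/+, and the activated median was 0.81 in MRL/lpr against Fn14ko. The sign turned for Cd68 (0.0074) and Cd14 (0.93) in MRL/lpr against MRL/+, Cd14 (0.69) and Cd52 (1.16) in MRL/lpr against Fn14ko and Cx3cr1 (7.2e-05) and Fcgr3 (-0.57) in Fn14ko against MRL/+. For Cd14, Cd52 and Fcgr3 the value with all samples comes from all spots, so spots and scale change along with the samples. For Cd68 and Cx3cr1 the value with all samples rests on 1 probe, while that without the weak array averages 2 and 3. The 1 probe alone gave 0.21 for Cd68 in MRL/lpr against MRL/+ without that array. For Cx3cr1 it gave -0.22 in Fn14ko against MRL/+, so that sign, and the homeostatic median equal to it, turned with the probes averaged. With all spots and no filter, limma called, of the 33 members, 0 in MRL/lpr against MRL/+ (0.993%, 7 at an unadjusted p under 0.05), and phenotypes did not overlap for 0 in MRL/lpr against MRL/+ (5.64%) and 2 in Fn14ko against MRL/+ (7.89%). The homeostatic median was -1.56 in MRL/lpr against MRL/+, -2.38 in MRL/lpr against Fn14ko and 0.67 in Fn14ko against MRL/+, and the activated median was -0.52 in MRL/lpr against Fn14ko. Differences changed sign for Cd68 (-1.11) and Itgam (-0.78) in MRL/lpr against Fn14ko and Tmem119 (0.31), Cx3cr1 (0.67), Cd68 (0.40) and Selplg (0.041) in Fn14ko against MRL/+. With members that lack a measured spot put on the measured-spot scale, chosen after seeing the data, limma called, of the 33 members, 1 in MRL/lpr against Fn14ko (3.98%), and phenotypes did not overlap for 3 in Fn14ko against MRL/+ (19.9%). Here the activated median was 0.86 in MRL/lpr against Fn14ko and -0.27 in Fn14ko against MRL/+. Opposite signs came for Cd14 (0.18) and Spi1 (0.45) in MRL/lpr against MRL/+, Cd14 (0.20) and Cd52 (1.24) in MRL/lpr against Fn14ko and Lgals3 (-0.22), Cd14 (-0.018) and Fcgr3 (-0.82) in Fn14ko against MRL/+. For Cd14 in both MRL/lpr comparisons, Cd52 and Fcgr3 these signs with all 12 samples are those without the weak array.

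With the software's processed signal, limma called, of the 33 members, 9 in MRL/lpr against Fn14ko (7.48%), and phenotypes did not overlap for 13 in Fn14ko against MRL/+ (25.2%). The homeostatic median was -1.06 in MRL/lpr against Fn14ko, and the activated median was -0.13 in MRL/lpr against MRL/+, -0.30 in MRL/lpr against Fn14ko and 0.89 in Fn14ko against MRL/+. Opposite signs came for Cst7 (-0.53) and Cd14 (0.15) in MRL/lpr against MRL/+, Cd68 (-0.43) and Lgals3 (-0.17) in MRL/lpr against Fn14ko and Cd68 (0.018) in Fn14ko against MRL/+. With the normexp background, phenotypes did not overlap for 3 in MRL/lpr against MRL/+ (16.6%). The homeostatic median was -0.71 in MRL/lpr against MRL/+. Sign changes were those of Cd68 (0.10) and Spi1 (0.11) in MRL/lpr against MRL/+. With quantile normalization, limma called, of the 33 members, 1 in MRL/lpr against MRL/+ (5.00%) and 1 in MRL/lpr against Fn14ko (1.56%), and phenotypes did not overlap for 10 in MRL/lpr against MRL/+ (19.0%) and 2 in Fn14ko against MRL/+ (21.2%). Here the homeostatic median was -1.50 in MRL/lpr against MRL/+ and -1.07 in MRL/lpr against Fn14ko, and the activated median was -0.24 in MRL/lpr against MRL/+ and -0.49 in MRL/lpr against Fn14ko. The sign turned for Cd68 (-0.71), Lgals3 (-0.28) and Cd52 (0.49) in MRL/lpr against Fn14ko, Fcgr3 (-0.44) and Spi1 (0.023) in Fn14ko against MRL/+ and Spi1 (0.49) in MRL/lpr against MRL/+. With the brightest probe of each gene, limma called, of the 33 members, 2 in MRL/lpr against Fn14ko (3.88%).

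Samples of 1 array share a slide position and a scan. With array as a random block the correlation within arrays was 0.710, and limma called, of the 33 members, 0 in MRL/lpr against MRL/+ (0.0790%, 2 at an unadjusted p under 0.05) and 0 in MRL/lpr against Fn14ko (0.0451%, 1 at an unadjusted p under 0.05). The fit called 7 genes in MRL/lpr against MRL/+, 4 in MRL/lpr against Fn14ko and 0 in Fn14ko against MRL/+ over all genes, beside 813, 353 and 46 as reported. In the 10 samples outside the weak array with array as a random block, chosen after seeing the data, where the correlation within arrays was -0.265, limma called, of the 33 members, 11 in MRL/lpr against MRL/+ (28.6%), 9 in MRL/lpr against Fn14ko (15.9%) and 9 in Fn14ko against MRL/+ (35.7%), and phenotypes did not overlap for 14 in MRL/lpr against MRL/+ (34.0%), 19 in MRL/lpr against Fn14ko (37.0%) and 4 in Fn14ko against MRL/+ (18.5%). The homeostatic median was -0.64 in MRL/lpr against MRL/+ and 7.2e-05 in Fn14ko against MRL/+, and the activated median was 0.81 in MRL/lpr against Fn14ko. Sign changes were those of Cd68 (0.0074) and Cd14 (0.93) in MRL/lpr against MRL/+, Cd14 (0.69) and Cd52 (1.16) in MRL/lpr against Fn14ko and Cx3cr1 (7.2e-05) and Fcgr3 (-0.57) in Fn14ko against MRL/+. A negative correlation narrows the errors of group means, so the higher counts there carry no added weight.

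Replicate numbers do not pair samples. Among 12 pairs of samples with the same number in different phenotypes, correlations of deviations from the phenotype mean ran from -0.395 to 0.503 with a median of 0.229, beside a median of 0.180 for pairs of another number and the same dye. With the replicate block limma called 1 member in MRL/lpr against MRL/+ (5.70%), Siglech, and 0 in MRL/lpr against Fn14ko (2.02%), where 12 had an unadjusted p under 0.05, and 0 in Fn14ko against MRL/+ (0%), where 4 had one.

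With no dye term, limma called, of the 33 members, 0 in MRL/lpr against Fn14ko (3.90%, 9 at an unadjusted p under 0.05). With estimated array weights, whose estimation did not fully converge, limma called, of the 33 members, 18 in MRL/lpr against MRL/+ (16.4%), 17 in MRL/lpr against Fn14ko (10.2%) and 23 in Fn14ko against MRL/+ (38.5%). Here the homeostatic median was -0.025 in MRL/lpr against Fn14ko, and the activated median was 0.87 in MRL/lpr against MRL/+ and 1.20 in MRL/lpr against Fn14ko. The sign turned for Cd68 (0.034) and Cd14 (0.28) in MRL/lpr against MRL/+ and Tmem119 (0.035) and Cd52 (0.29) in MRL/lpr against Fn14ko.

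At an unadjusted p under 0.05 the methods' t-test called 6 members in MRL/lpr against MRL/+, 9 in MRL/lpr against Fn14ko and 2 in Fn14ko against MRL/+. After Benjamini-Hochberg it called 0, 0 and 0. Of 8864 genes it called 1403, 1155 and 1493 at the unadjusted p and 0, 0 and 8 after Benjamini-Hochberg. The methods also require a fold change above a cut-off set by each gene's variability. That cut-off was not applied, so these are not counts by the methods' full criterion.

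With the negative-control background, chosen after seeing the data, limma called, of the 33 members, 6 in MRL/lpr against MRL/+ (27.0%) and 0 in MRL/lpr against Fn14ko (2.23%, 4 at an unadjusted p under 0.05), and phenotypes did not overlap for 5 in Fn14ko against MRL/+ (18.3%). The homeostatic median was -1.41 in MRL/lpr against MRL/+ and -0.87 in MRL/lpr against Fn14ko, and the activated median was 0.68 in Fn14ko against MRL/+. Differences changed sign for Cd68 (-0.24) in MRL/lpr against Fn14ko. With Cy3 samples only, chosen after seeing the data, limma called, of the 33 members, 0 in MRL/lpr against MRL/+ (0%, 9 at an unadjusted p under 0.05) and 0 in MRL/lpr against Fn14ko (0%, 6 at an unadjusted p under 0.05), and phenotypes did not overlap for 21 in MRL/lpr against MRL/+ (45.9%), 23 in MRL/lpr against Fn14ko (45.3%) and 19 in Fn14ko against MRL/+ (55.2%). Here the homeostatic median was -0.87 in MRL/lpr against Fn14ko and 0.021 in Fn14ko against MRL/+. Opposite signs came for Cx3cr1 (0.021), Cst7 (0.71) and Fcgr3 (-0.31) in Fn14ko against MRL/+.

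With the weak array left out and the negative-control background, chosen after seeing the data, limma called, of the 33 members, 5 in MRL/lpr against MRL/+ (11.7%) and 1 in MRL/lpr against Fn14ko (2.04%), and phenotypes did not overlap for 15 in MRL/lpr against MRL/+ (37.7%), 16 in MRL/lpr against Fn14ko (37.4%) and 7 in Fn14ko against MRL/+ (15.3%). The activated median was 1.83 in MRL/lpr against MRL/+, 1.07 in MRL/lpr against Fn14ko and 1.18 in Fn14ko against MRL/+. Sign changes were those of Cst7 (-0.68) and Cd14 (3.77) in MRL/lpr against MRL/+, Cd14 (0.74) and Cd52 (1.24) in MRL/lpr against Fn14ko and P2ry12 (-0.13) and Fcgr3 (-0.54) in Fn14ko against MRL/+. Leaving out the weak array and all Cy5 samples, chosen after seeing the data, so that MRL/lpr is 1 sample assumed to vary like the others, limma called, of the 33 members, 5 in MRL/lpr against MRL/+ (4.98%) and 2 in MRL/lpr against Fn14ko (2.15%), and phenotypes did not overlap for 30 in MRL/lpr against MRL/+ (84.2%), 28 in MRL/lpr against Fn14ko (72.1%) and 20 in Fn14ko against MRL/+ (53.0%). Here the homeostatic median was 0.19 in Fn14ko against MRL/+, and the activated median was 1.28 in MRL/lpr against MRL/+ and 0.83 in MRL/lpr against Fn14ko. The sign turned for Cd68 (0.052) and Cd14 (0.70) in MRL/lpr against MRL/+, Cd14 (0.51) and Cd52 (1.48) in MRL/lpr against Fn14ko and Tmem119 (0.031), Cx3cr1 (0.19), Cst7 (0.71) and Fcgr3 (-0.37) in Fn14ko against MRL/+.

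Without the repeat probes, chosen after seeing the data, phenotypes did not overlap for 2 in Fn14ko against MRL/+ (20.0%). Sign changes were those of Siglech (-0.42) in Fn14ko against MRL/+. With neither the weak array nor the repeat probes, chosen after seeing the data, limma called, of the 33 members, 7 in MRL/lpr against MRL/+ (15.7%) and 4 in Fn14ko against MRL/+ (21.1%), and phenotypes did not overlap for 15 in MRL/lpr against MRL/+ (34.0%), 18 in MRL/lpr against Fn14ko (37.0%) and 5 in Fn14ko against MRL/+ (18.5%). Here the homeostatic median was -0.64 in MRL/lpr against MRL/+ and 0.00016 in Fn14ko against MRL/+, and the activated median was 0.81 in MRL/lpr against Fn14ko. The sign turned for Cd68 (0.0080), Cd14 (0.93) and Siglech (-0.91) in MRL/lpr against MRL/+, Cd14 (0.69), Cd52 (1.16) and Itgam (-0.25) in MRL/lpr against Fn14ko and Cx3cr1 (0.00016), Fcgr3 (-0.57) and Siglech (-0.16) in Fn14ko against MRL/+.

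Leaving out each sample in turn, members called ranged from 0 (without MRL/+ replicate 2) to 8 (without MRL/lpr replicate 2) in MRL/lpr against MRL/+ and from 0 to 14 in MRL/lpr against Fn14ko, and stayed at 0 in Fn14ko against MRL/+ (0 to 8 had an unadjusted p under 0.05). Against Fn14ko the count was 9 without MRL/lpr replicate 1, 14 without MRL/lpr replicate 2 and 0 without any other single sample. Over 8864 genes the calls numbered 3553 and 4298 without these 2 samples and from 40 to 175 without any other, beside 353. Against MRL/+ it was 6 without MRL/lpr replicate 1, 2 without MRL/lpr replicate 4 or Fn14ko replicate 3, 1 without each of the rest but MRL/+ replicate 2, and over all genes 3334 and 3467 without MRL/lpr replicates 1 and 2 and from 126 to 552 without the others, beside 813. Members whose phenotypes did not overlap ranged from 5 to 8 in MRL/lpr against MRL/+ and from 1 to 5 in Fn14ko against MRL/+, with fewer samples to overlap, and over all measured genes from 16.1% to 23.9% and from 19.9% to 28.6%. The difference of Cd14 in MRL/lpr against MRL/+ ranged from -1.05 to 0.36, and that of Spi1 from -0.48 to 0.32. In MRL/lpr against Fn14ko Cd68 ranged from -0.010 to 0.32, Lgals3 from -0.48 to 0.57 and Cd52 from -0.60 to 0.31. In Fn14ko against MRL/+ P2ry12 ranged from -0.025 to 0.15 and Fcgr3 from -0.033 to 0.25.

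Signal over background is 1 limit. In the weak array 8 and 5 of the 33 members were well above background. With it 13 members have a filtered value and without it 29, while Cd53, Cst7, Itgax and Spi1 have none either way, and without that array MRL/lpr is 2 mice of 1 array. In MRL/+ the Cy5 samples held 14 and 17 members well above background, and dim members such as Lyz2 read higher there than in Cy3. Of the other lists, Dock2, Sall1, C1ql2 and Fibcd1 also read higher there, while Cx3cl1, Csf3r, Fgfr3, Esam and Slco1a4 read lower. The dye term is shared by the phenotypes and does not remove a shift in MRL/+ alone.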
